A study of Mus musculus with 4 samples.

Results

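The extracellular matrix is the protein scaffold that surrounds cells and carries their attachment sites. The 68 genes described here encode its main building blocks. They are every protein-coding gene whose symbol has the form of a collagen chain or of a laminin chain, together with 13 matrix proteins and crosslinking enzymes (Fn1, Vcan, Postn, Tnc, Lox, Loxl1, Loxl2, Loxl3, Loxl4, Fbn1, Eln, Thbs1 and Sparc). The rule uses names only, applied to the 54532 genes of the count table, though the group was chosen with earlier results of these data known. All 68 were found, 44 collagens, 11 laminins, 8 glycoproteins and 5 lysyl oxidases. Of these, 48 had a mean of at least 10 counts over the 4 libraries and were read further, against 14900 such genes in the whole table.

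The cells were CD11b+Ly6g+ myeloid-derived suppressor cells (MDSCs) sorted from the lungs of C57BL/6 mice, 6-8 weeks old, with an induced pre-metastatic niche (PMN), a lung made receptive to tumor cells. All 4 groups shared the model: daily intraperitoneal medium conditioned by melanoma cells (MCM, 300 μL per mouse) for 10 days, and cells of the mouse melanoma line B16F10 through the tail vein on day 7. The control mice were model mice without a peptide, and the other mice received TP5, sFD17 or FR17 subcutaneously at 40 μM/kg per day starting on day 3, before lungs were taken on day 10. TP5 is thymopentin, an immunomodulatory pentapeptide, FR17 is a larger peptide that carries TP5 and assembles after cleavage by MMP2, and sFD17 is the same construct with the TP5 residues in scrambled order. Each group was 1 library from the sorted cells of 10 to 12 mice, so no difference below has a replicate check and no p-value is given. What follows compares 4 libraries, not 4 conditions, and the intervals cover counting error only. Fewer cells of a type and less RNA per cell cannot be told apart in such pools.

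Collagens are triple helices wound from 3 chains. Fibrillar collagens such as types I and III give tissue its tensile strength, type IV collagen and the laminins build the basement membrane under epithelium and endothelium, and glycoproteins such as fibronectin and thrombospondin link cells to these networks. Fibroblasts, smooth muscle and endothelium make most of them in the lung, while myeloid cells are known sources of fibronectin, thrombospondin-1 and versican. Lysyl oxidases crosslink collagen and elastin, and matrix deposition of this kind is a known feature of metastatic niches.

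Total counts were 15543071 to 19638228 per library. Levels are given as counts-per-million values (CPM) scaled by edgeR's TMM factors, which ran from 0.847 with sFD17 to 1.166 with FR17. A gene without a count could still have had 3 counts, which is 0.131 to 0.228 CPM. Scaling by library size alone moved the median log2 fold change of all genes from 0.00 to 0.05 with TP5, from -0.02 to -0.24 with sFD17 and from 0.02 to 0.26 with FR17, so differences under TMM are relative to the median gene. The 11 neutrophil markers, which fit the Ly6g gate, were all read and summed to between 28746 CPM in FR17 and 42093 CPM in sFD17. Of 6 melanoma markers 1 was read, Tyr and Tyrp1 were at 0 counts throughout, and the list summed to 1.3 to 2.43 CPM.

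The 68 genes took 0.527% of all counts in control, 0.585% with TP5, 0.667% with sFD17 and 0.441% with FR17. Their summed level was 5332 CPM in control, 5718 with TP5, 7873 with sFD17 and 3785 with FR17. The ratio to control was 1.07 with TP5 (95% interval 1.06 to 1.08), 1.48 with sFD17 (1.46 to 1.49) and 0.710 with FR17 (0.703 to 0.716). Thbs1 alone supplied 61.0% to 85.4% of these counts. Without Thbs1 the sum was 1737 CPM in control, 1196 with TP5, 1149 with sFD17 and 1475 with FR17, so the ratio turned to 0.688 with TP5 and 0.661 with sFD17. Without Fn1 as well it was 720, 509, 768 and 742 CPM, a ratio of 0.707 with TP5, 1.07 with sFD17 and 1.03 with FR17. The sum was therefore set by 2 abundant glycoproteins, and only TP5 stood well below control in the remaining 66 genes.

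**Figure D1:**
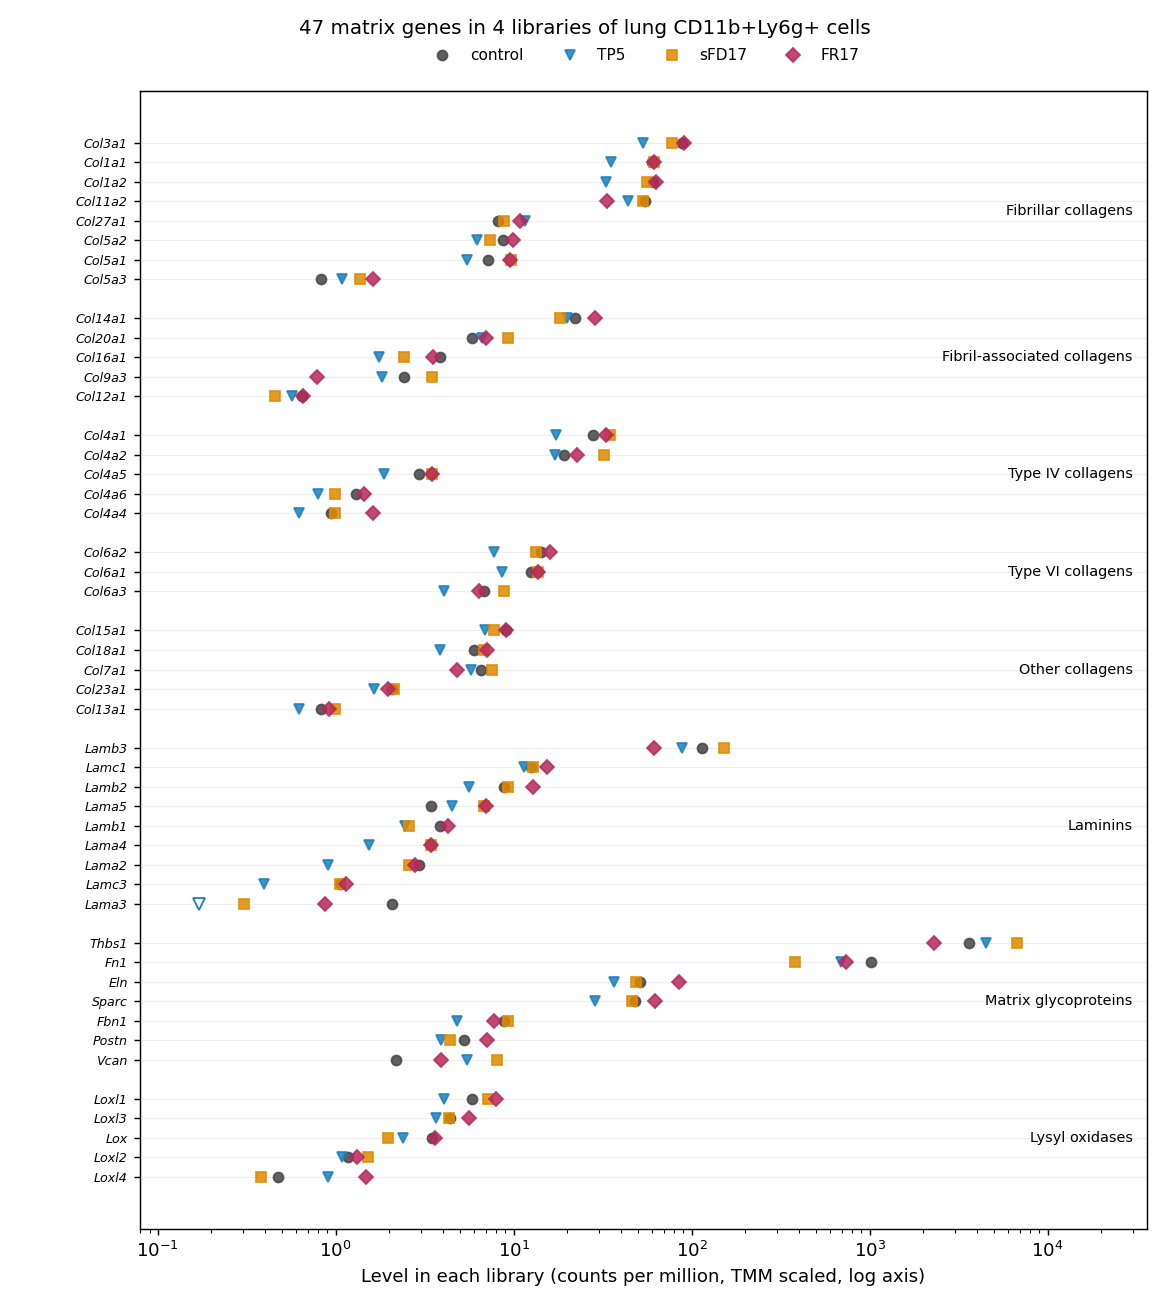
Level of 47 matrix genes in the 4 libraries, in CPM on a log axis, grouped by family; each symbol is 1 library and the open triangle stands at the 3-count floor for Lama3, which had 0 counts in TP5. The TP5 symbol is the leftmost for 32 of the 47 genes, and Thbs1 and Fn1 stand above all others.

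A gene was counted as changed between 2 libraries when its log2 CPM (prior count of 2) differed by at least 2-fold and the exact 95% interval of the count ratio left out 1. In TP5 against control, 1 of 48 genes was higher and 5 were lower by this rule, beside 1.83% higher and 3.38% lower among all 14900 genes. The 5 lower genes made up 10.4% of the 48. Lama3, 1 of the 5, reached the 10-count mean only through the control library, where it was high. Below control, at any size, lay 40 of the 48 genes, with a median log2 fold change of -0.48 (also -0.48 with Lama3 at its bound), while 50.5% of all genes lay above control and their median was 0.00. The count interval lay wholly below 1 for 24 of the 48 and wholly above 1 for 3, against 19.8% and 19.2% of all genes. The 40 genes below control stayed 40 when library size alone was used for scaling.

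In sFD17 against control, 1 gene was higher and 2 were lower (background 3.95% and 4.74%). Lama3, 1 of the 2 lower, was read only through its control count. The genes split 27 above and 21 below, with a median log2 fold change of 0.04 (48.3% of all genes lay above, with a median of -0.02), but 16 above and 32 below under library size alone. In FR17 against control, 2 genes were higher and 2 lower (background 2.34% and 2.53%), with 36 above and 12 below control and a median of 0.14, beside 52.2% of all genes above control and a median of 0.02. Loxl4, 1 of the 2 higher, was read only through its FR17 count, and Lama3, 1 of the 2 lower, only through its control count. Under library size alone 41 of the 48 lay above control in FR17, with a median of 0.36 beside 0.26 for all genes, and 4 were higher and 1 lower by the rule (background 4.69% and 1.12%). The 3 comparisons share the control library, so each control value enters all of them. Ranked over the 4 libraries, 32 of the 48 genes were lowest in TP5, where 14.3% of all genes were lowest, and 25 were highest in FR17, where 33.5% of all genes were highest. By library size alone the counts were 26 and 37, beside 11.6% and 55.5% of all genes.

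**Figure D2:**
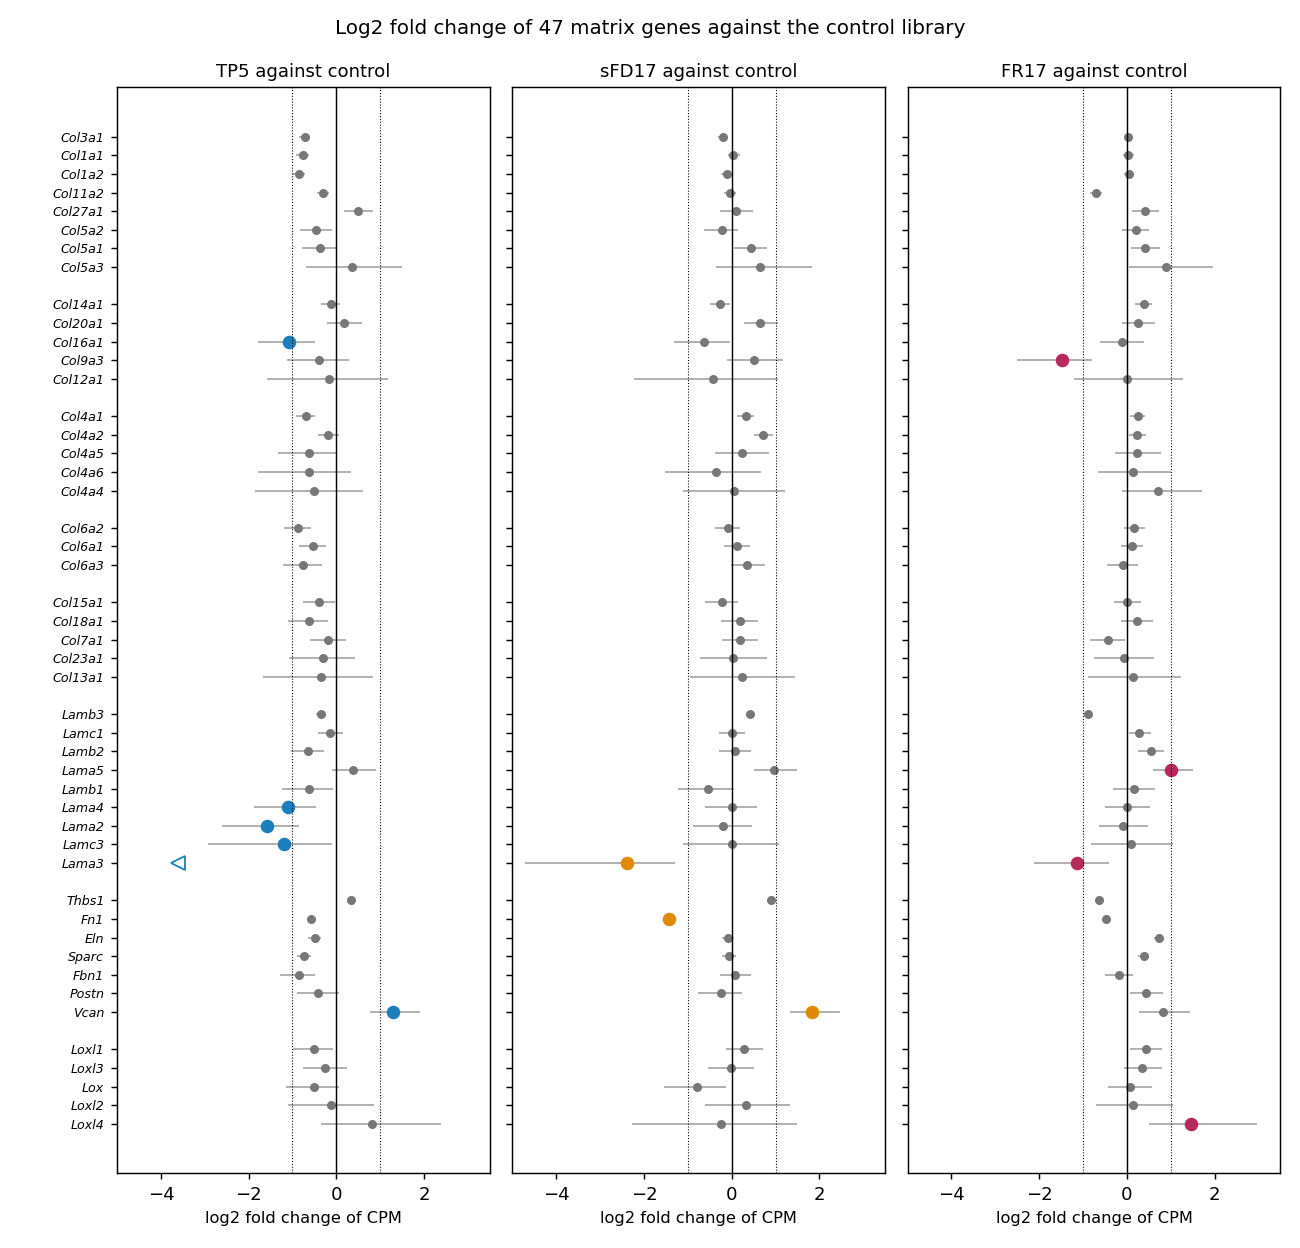
Log2 fold change of 47 genes in TP5, sFD17 and FR17 against the control library, with exact 95% counting intervals as grey lines, the 2-fold limits dotted and colored points for genes past the rule; the open triangle is the 3-count floor of -3.60 for Lama3, without a count in TP5. Most points in the TP5 panel lie left of 0 (40 of 47), against 21 with sFD17 and 12 with FR17.

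Type I and III collagens, the main fibrillar collagens of lung connective tissue, were lower in TP5 and closer to control elsewhere. Col1a1 (ENSMUSG00000001506, GRCm38 chr11:94936224-94953042), the α1 chain of type I collagen, stood at 59.9 CPM in control, 35.3 with TP5, 61.6 with sFD17 and 61.3 with FR17. The TP5 library was the low one and the other 3 lay close together, with a ratio to control of 0.590 with TP5 (0.533 to 0.653), 1.03 with sFD17 (0.938 to 1.13) and 1.02 with FR17 (0.944 to 1.11). Col1a2, its partner chain, was 60.5 CPM in control, 33.2 with TP5, 55.9 with sFD17 and 62.7 with FR17. Col3a1 was 88.6, 53.5, 77.3 and 90.2 CPM in the same order, with an sFD17 ratio to control of 0.873 (0.805 to 0.946). Col1a2 and Col3a1 were again lowest in TP5, by 0.86 and 0.72 on the log2 scale, under the 2-fold limit. By library size alone, Col1a1, Col1a2 and Col3a1 were at -0.18, -0.34 and -0.42 in sFD17 and at 0.27, 0.29 and 0.26 in FR17.

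Per kilobase of exon, the α1 and α2 chains of type I collagen, which pair 2 to 1 in the protein, stood at a ratio of 1.87 in control (1.72 to 2.05), 2.01 with TP5 (1.80 to 2.26), 2.09 with sFD17 (1.89 to 2.31) and 1.85 with FR17 (1.72 to 2.00). Their intervals all overlapped, so both chains were lower in TP5 by about the same factor. Col3a1 to Col1a1 was 0.989, 1.01, 0.838 and 0.983 per kilobase.

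The stretches before the annotated starts of 2 of these chains are shown because Col1a2 and Col3a1 moved together, and that of Vcan because it moved the other way. Each is the 250 bases before the start in RefSeq's GRCm38.p6 annotation, on the gene's strand. Capitals mark TATAAA or CCAAT on either strand, with ATTGG as the reverse of CCAAT.
Col1a2, chr6:4505368-4505617, plus strand: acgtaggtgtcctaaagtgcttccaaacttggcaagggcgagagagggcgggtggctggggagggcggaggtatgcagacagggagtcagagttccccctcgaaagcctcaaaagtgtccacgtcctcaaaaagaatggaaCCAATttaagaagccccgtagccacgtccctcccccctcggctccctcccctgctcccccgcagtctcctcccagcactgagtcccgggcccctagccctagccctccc
Col3a1, chr1:45311288-45311537, plus strand: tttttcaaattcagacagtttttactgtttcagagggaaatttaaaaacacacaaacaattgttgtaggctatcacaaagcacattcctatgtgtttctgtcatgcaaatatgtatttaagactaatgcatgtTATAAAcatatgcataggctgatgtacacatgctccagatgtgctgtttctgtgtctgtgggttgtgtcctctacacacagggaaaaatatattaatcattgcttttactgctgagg
Vcan, chr13:89742513-89742762, minus strand: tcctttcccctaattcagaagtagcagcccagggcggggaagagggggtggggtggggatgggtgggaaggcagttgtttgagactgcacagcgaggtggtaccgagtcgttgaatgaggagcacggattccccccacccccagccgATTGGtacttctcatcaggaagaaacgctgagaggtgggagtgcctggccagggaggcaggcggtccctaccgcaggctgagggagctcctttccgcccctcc
The match begins 109 bases before the start in Col1a2, 117 in Col3a1 and 103 in Vcan, counted in the direction of transcription. The RefSeq table held 52 windows for 46 of the 68 genes, 31 of them among the 48 read. GGGCGG, the GC box, on either strand was in 55.8% of these windows and in 32.7% of all 32851. TATAAA was in 15.4% against 12.4%, and CCAAT in 28.8% against 33.8%. A match is a description of the letters only.

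Among the other fibrillar chains, Col11a2, a chain of type XI collagen best known from cartilage, was 54.4 CPM in control, 44.0 with TP5, 53.1 with sFD17 and 33.5 with FR17, so that FR17 was the lowest (ratio to control 0.616, 0.559 to 0.679), below TP5 (0.810, 0.735 to 0.892). Col27a1 went the other way in TP5, with 8.15 CPM in control and 11.6 with TP5 (1.42, 1.14 to 1.77). Summed over the 11 fibrillar genes, the level was 0.661 of control in TP5 (0.632 to 0.691), 0.955 with sFD17 (0.915 to 0.997) and 0.970 with FR17 (0.935 to 1.01). By library size alone the sFD17 ratio was 0.819 and the FR17 ratio turned to 1.14. Of the 8 fibrillar genes read, 6 lay below control in TP5, and none passed the 2-fold rule in any of the 3 comparisons.

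All 5 read type IV collagens, the collagens of basement membranes, lay below control in TP5, and none passed the 2-fold rule against control in any library. In sFD17 4 of 5 lay above control, with Col4a6 below it, and the median log2 fold change of 0.23 was 0.02 by library size alone. Col4a1 (chr8:11198423-11312826), which forms the common type IV network together with Col4a2, was 28.0 CPM in control, 17.3 with TP5, 34.9 with sFD17 and 33.2 with FR17. Col4a2 was 19.3, 17.1, 32.0 and 22.8 CPM. Col4a1 was thus lowest in TP5 and similar in sFD17 and FR17, whereas Col4a2 was highest in sFD17, at 1.66 of control (1.43 to 1.92). The ratio of Col4a1 to Col4a2 per kilobase was 1.29 in control (1.11 to 1.48) and in FR17 (1.15 to 1.45), 0.899 with TP5 (0.764 to 1.06) and 0.969 with sFD17 (0.847 to 1.11).

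These 2 genes lie head to head, and their first exons share 22 bases on opposite strands, shown because reads there belong to either gene unless the counting used strand, which the sources used here do not name.
Col4a1 and Col4a2, chr8:11312805-11312826, plus strand: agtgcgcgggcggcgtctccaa
The minor chains Col4a4, Col4a5 and Col4a6 had 11 to 80 counts, were all lowest in TP5, and had ratios to control whose intervals included 1 in every library. The 6 type IV genes summed to 0.717 of control in TP5 (0.648 to 0.794), 1.37 with sFD17 (1.25 to 1.51) and 1.19 with FR17 (1.10 to 1.3).

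The 3 read chains of type VI collagen, which forms beaded filaments around cells, were low in TP5 together. Col6a1 was 12.6 CPM in control, 8.65 with TP5, 13.7 with sFD17 and 13.7 with FR17. Col6a2 was 14.2, 7.74, 13.4 and 16.1 CPM, and Col6a3 was 6.85, 4.04, 8.81 and 6.38 CPM. The sum over the 6 type VI genes was 0.608 of control in TP5 (0.531 to 0.694), with 3 of the 3 read below control, and 1.06 with sFD17 and 1.07 with FR17 with intervals that included 1. By library size alone the sFD17 ratio was 0.912.

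The fibril-associated collagens, which sit on the surface of fibrils, summed to 0.895 of control in TP5 (0.795 to 1.01), 0.982 with sFD17 and 1.17 with FR17 (1.06 to 1.3). Col16a1 had 65 counts in control, 31 with TP5, 32 with sFD17 and 81 with FR17, and was one of the 5 genes past the rule in TP5, at 0.460 of control (0.290 to 0.715). Col9a3, a chain of cartilage type IX collagen, had 41, 32, 46 and 18 counts and was past the rule in FR17, at 0.325 of control (0.176 to 0.578). Col14a1, the most abundant of the group at 18.3 to 28.6 CPM, was highest in FR17 and lowest in sFD17. Col20a1 (5.85 to 9.26 CPM) overlaps BX649560.1 over 79 exon bases of the same strand, and that gene had 88 to 111 counts, so the Col20a1 value is uncertain. Col12a1 had 6 to 15 counts.

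Of the remaining collagens, Col15a1 and Col18a1, which are multiplexins of the basement membrane zone, had 6.88 to 9.09 and 3.87 to 7.08 CPM, both lowest in TP5. Col7a1, the anchoring fibril collagen, was lowest in FR17 at 4.80 CPM. Col23a1 had 1.65 to 2.13 CPM and Col13a1 0.626 to 0.987 CPM, both transmembrane collagens and both lowest in TP5. None passed the rule against control, and all 5 lay below control in TP5. Summed over all 12 genes of this group, the 7 scarcer ones included, the ratio was 0.787 (0.683 to 0.907).

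Laminins are trimers of an α, a β and a γ chain, and 4 of their chains were past the rule in TP5. Lama2, the α chain of muscle and mesenchymal basement membranes, had 50 counts in control, 16 with TP5, 34 with sFD17 and 64 with FR17, or 2.95, 0.910, 2.58 and 2.80 CPM. Its ratio to control was 0.308 with TP5 (0.164 to 0.551), and in sFD17 and FR17 the interval included 1. Lama4, the α chain typical of vessels, had 58, 27, 45 and 79 counts and a ratio of 0.449 with TP5 (0.273 to 0.720). Lamc3 had 18, 7, 14 and 26 counts, with a ratio of 0.375 with TP5 (0.132 to 0.940). The TP5 library was the low one for all 3.

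Lama3, an α chain of epithelial laminin-332, had 35 counts in control, 0 with TP5, 4 with sFD17 and 20 with FR17. Against the floor of 3 counts, with the control count taken as it stands, it was at least 12.1-fold lower in TP5 than in control. The exact interval, which adds the counting error of control, ran up to 0.107 of control. It was also past the rule in sFD17 (ratio 0.147, 0.0379 to 0.411) and in FR17 (0.423, 0.231 to 0.753), so the control library was the high one. Lama3 reached the 10-count mean only through control, so it was read because of the library it was called lower against. Its FR17 call was lost by library size alone. The 10 lung epithelium markers, all read, summed to 664 CPM in control, 977 with TP5, 1335 with sFD17 and 793 with FR17, mostly Scgb1a1. The single markers were split, with 6 above and 4 below control in each of TP5, sFD17 and FR17. Past the rule were Cldn18, lower in TP5 with 8 counts against 19, and Scgb1a1 and Sftpb, higher in sFD17. The part of epithelial cells in the Lama3 difference was not tested.

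Lamb3 (ENSMUSG00000026639, chr1:193207699-193343878), the β chain of laminin-332, was the most abundant laminin and had its own pattern. It stood at 114 CPM in control, 88.5 with TP5, 152 with sFD17 and 61.4 with FR17, or 17.2, 13.4, 22.9 and 9.28 CPM per kilobase. It was highest in sFD17 (1.33 of control, 1.25 to 1.42) and lowest in FR17 (0.539, 0.503 to 0.577). Lama5, the α chain of most adult epithelial and vascular basement membranes, had 58, 79, 90 and 161 counts. It was past the rule in FR17 (2.05, 1.51 to 2.82), and in sFD17 it was 2.00 of control (1.42 to 2.83) but just under the limit on the log2 scale, at 0.97 against 1.01 with FR17. Lamc1 (11.5 to 15.4 CPM), Lamb2 (5.58 to 12.8) and Lamb1 (2.45 to 4.28), the chains shared by most laminins, were all lowest in TP5 and highest in FR17.

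The laminin sum was 0.762 of control in TP5 (0.718 to 0.807), 1.25 with sFD17 (1.18 to 1.32) and 0.718 with FR17 (0.680 to 0.759). Lamb3 set the sum, and the median laminin differed from it in FR17, where the median log2 fold change was 0.07. In TP5 the median was -0.64, unchanged with Lama3 at its bound, with 8 of 10 below control. In sFD17 the median was 0.01, and -0.20 by library size alone.

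Thbs1 (ENSMUSG00000040152, chr2:118111876-118127133), which encodes thrombospondin-1, an inhibitor of angiogenesis and activator of latent TGF-β, was far above every other member. It had 60894 counts in control, 79483 with TP5, 88576 with sFD17 and 52884 with FR17, or 3595, 4522, 6724 and 2310 CPM. Per kilobase it held rank 73 of all genes in control, 58 with TP5, 45 with sFD17 and 104 with FR17. Its ratio to control was 1.26 with TP5 (1.24 to 1.27), 1.87 with sFD17 (1.85 to 1.89) and 0.643 with FR17 (0.635 to 0.650), and none was past 2-fold. The summed neutrophil markers had the same order of libraries, at 32160 CPM in control, 35273 with TP5, 42093 with sFD17 and 28746 with FR17. The summed platelet markers stood at 122, 56.7, 39.6 and 155 CPM, mostly Pf4, with Gp1bb at 0 counts in every library. Most single platelet markers did not share the order of that sum, with 3 of the 6 read above control in TP5 and 4 in sFD17, and medians of 0.01 and 0.19 on the log2 scale. Whether cell content had a part in the Thbs1 differences was not tested.

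Fn1 (ENSMUSG00000026193, chr1:71585520-71653200), which encodes fibronectin, was highest in control. It stood at 1017 CPM in control, 687 with TP5, 381 with sFD17 and 733 with FR17, with rank 610, 849, 1578 and 715 per kilobase. The ratio to control was 0.675 with TP5 (0.660 to 0.691), 0.374 with sFD17 (0.363 to 0.386) and 0.721 with FR17 (0.706 to 0.736), so sFD17 alone was past the rule. Of 10 macrophage markers, all 10 lay below control in sFD17 and 6 were past the rule there, beside 4.74% of all genes lower. The list summed to 3335 CPM in control, 2171 with TP5, 1142 with sFD17 and 3940 with FR17, with none of its markers at 0. Fn1 and this list were both lowest in sFD17, but in FR17 the list was 1.18 of control while Fn1 was 0.721. Its part in the Fn1 difference was not tested.

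Vcan (ENSMUSG00000021614, chr13:89655312-89742509), which encodes versican, a large chondroitin sulfate proteoglycan of provisional matrix, was the only member past the rule upward in TP5 and in sFD17. It had 37 counts in control, 96 with TP5, 106 with sFD17 and 90 with FR17, or 2.18, 5.46, 8.05 and 3.93 CPM. The control library was the low one. The ratio was 2.50 with TP5 (1.69 to 3.76), 3.68 with sFD17 (2.51 to 5.51) and 1.80 with FR17 (1.21 to 2.72). The 6 monocyte markers, a cell type known to express Vcan, summed to 1614, 1499, 1488 and 1766 CPM in the same order, mostly Csf1r, with none at 0. The single markers went both ways, with 3 of 6 above control in TP5, 1 of 6 in sFD17 and 6 of 6 in FR17. Ly6c2 was past the rule upward in sFD17 (103, 164, 275 and 121 CPM), and F13a1 was past it downward in TP5 and sFD17 (296, 117, 79.3 and 358 CPM). Their part in the Vcan difference was not tested.

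Eln, the elastin gene, was 51.6 CPM in control, 36.8 with TP5, 48.7 with sFD17 and 85.3 with FR17, and Sparc, a collagen-binding glycoprotein, was 48.2, 28.8, 46.2 and 62.6 CPM. Both were lowest in TP5 and highest in FR17, with an Eln ratio to control of 0.713 with TP5 (0.643 to 0.791) and 1.65 with FR17 (1.53 to 1.79). Fbn1, the microfibril protein fibrillin-1, was 4.78 CPM in TP5 and 7.73 to 9.34 elsewhere. Postn, encoding periostin, had 58 to 163 counts. Tnc, encoding tenascin-C, had 3 to 8 counts per library and was not read. The family sum followed Thbs1, at 1.12 of control in TP5, 1.53 with sFD17 and 0.679 with FR17, while the median log2 fold change of its 7 read genes had the other sign, -0.49, -0.06 and 0.38.

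**Figure D3:**
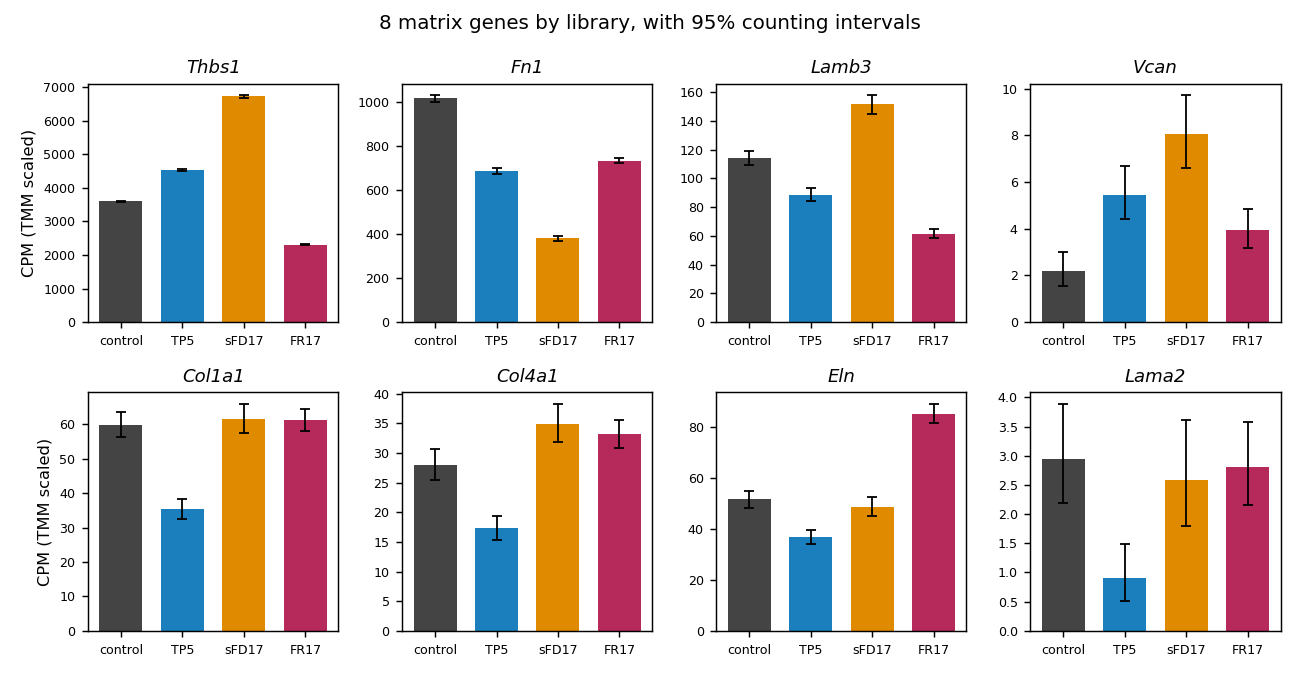
Level of 8 matrix genes in the control, TP5, sFD17 and FR17 libraries in CPM, each bar 1 library with its exact 95% Poisson interval, which covers counting error only. Col1a1, Col4a1, Eln and Lama2 are lowest in TP5, whereas Thbs1 and Lamb3 are highest in sFD17 and lowest in FR17, Fn1 is lowest in sFD17 and Vcan is lowest in control.

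The lysyl oxidases were scarce. Lox had 59 counts in control, 42 with TP5, 26 with sFD17 and 83 with FR17, or 1.97 to 3.63 CPM, and no library was past the rule. Loxl1, which acts mainly on elastin, was 5.85, 4.04, 7.14 and 7.91 CPM. Loxl4 had 8, 16, 5 and 34 counts and was past the rule in FR17 (3.14, 1.43 to 7.86), an interval kept wide by the 8 counts in control. Loxl3 (3.64 to 5.59 CPM) shares 535 of its 4603 exon bases with Htra2 on the other strand, which had 418 to 794 counts, so its value depends on whether strand was used. Loxl2 had 19 to 30 counts. The family sum was 0.786 of control in TP5 (0.652 to 0.946), 0.999 with sFD17 (0.827 to 1.21) and 1.3 with FR17 (1.11 to 1.52).

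The 20 members under the 10-count mean had at most 18 counts in any library, the value of Col17a1 with TP5. Col6a4, Col9a1 and Col26a1 had no count in any library, which allows up to the floor given above. The 20 include the cartilage collagens Col2a1, Col10a1 and Col11a1, the kidney and lung chain Col4a3 with 4 to 14 counts, and Lama1 with 2 counts in control and 0 elsewhere.

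TP5 and FR17 carry the same active residues, free in TP5 and attached to the assembling peptide in FR17, and were given at the same dose and times. FR17 against TP5 had 9 genes higher and 1 lower (background 5.44% and 1.81%), with 40 of 48 above 0 and a median log2 difference of 0.65 beside -0.02 for all genes. By library size alone 16 were higher and 0 lower (background 7.9% and 1.09%). The 9 were Eln (2.32, 2.12 to 2.54), Sparc (2.17, 1.96 to 2.41), Col6a2 (2.08, 1.70 to 2.55), Lamb2 (2.30, 1.83 to 2.93), Lama4, Lama2, Col4a4, Lamc3 and Lama3. With 20 counts against 0, Lama3 was at least 5.12-fold higher in FR17 against the same floor, and its exact interval began at 3.79. The gene lower in FR17 was Col9a3. Col1a1 was 1.74 (1.58 to 1.91) and Col3a1 1.68 (1.56 to 1.82), and Thbs1 was 0.511 (0.505 to 0.516).

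FR17 and sFD17 differ in the order of the TP5 residues, per the study's methods, and shared dose and times. FR17 against sFD17 had 1 gene higher, Loxl4, and 4 lower, Thbs1, Lamb3, Vcan and Col9a3 (background 9.49% and 9.75%). Loxl4 was read only through its FR17 count. The shares of 2.08% and 8.33% of the 48 were below the background. By library size alone the balance turned, with 9 higher, Fn1, Eln and Col14a1 among them, and 2 lower, Thbs1 and Col9a3 (background 24.3% and 3.95%), so the calls of Lamb3 and Vcan rested on the scaling. Thbs1 was 0.344 of its sFD17 level (0.340 to 0.347), Lamb3 0.405 (0.378 to 0.434) and Vcan 0.489 (0.365 to 0.653), while Fn1 was 1.93 (1.87 to 1.99), under the limit. Of the 26 collagens read, 16 had an interval that included 1, 4 lay wholly above it and 6 wholly below, beside 32.6% and 31.3% of all genes. Col1a1 was 0.995 (0.912 to 1.09), Col6a1 0.995 (0.826 to 1.20) and Col4a1 0.951 (0.846 to 1.07). Other chains of the same types differed, with Col1a2 at 1.12 (1.03 to 1.23), Col6a3 at 0.724 (0.564 to 0.932) and Col4a2 at 0.713 (0.626 to 0.813). Col14a1 was 1.56 (1.34 to 1.82) and Col11a2 0.631 (0.569 to 0.700). The summed glycoproteins were 0.444 (0.440 to 0.449) and the summed laminins 0.574 (0.543 to 0.607).

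The third pair, sFD17 against TP5, had 5 genes higher, Col4a1, Col6a3, Lama4, Lama2 and Lamc3, and 0 lower (background 5.38% and 3.73%). Above 0 lay 41 of 48, with a median of 0.56, beside 47% of all genes and a median of -0.04. With library size alone 34 lay above 0, with a median of 0.29 beside -0.31 for all genes. The balance of the calls then turned to 1 higher, Lama2, and 2 lower, Fn1 and Loxl4 (background 3.03% and 8.27%). Col4a1 was 2.02 of its TP5 level (1.74 to 2.34) and Col1a1 1.74 (1.57 to 1.94). In all, 6 pairs of libraries were compared, and every value of a library recurs in 3 of them.

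Markers of cells that make these proteins are given beside them. The background for every marker count is 1.83% of all genes higher and 3.38% lower in TP5. It is 3.95% and 4.74% with sFD17, and 2.34% and 2.53% with FR17. All 12 fibroblast markers lay below control in TP5 and 6 were past the rule, with a median log2 fold change of -1.05. In sFD17 11 of 12 lay below control and 3 were past the rule, with a median of -0.53, and in FR17 8 of 12 lay above, with a median of 0.11. Their sum was 484 CPM in control, 390 with TP5, 448 with sFD17 and 381 with FR17, mostly Pi16. Without Pi16, left out after its values were seen, the sum was 106 CPM in control, 49.7 with TP5, 61.9 with sFD17 and 121 with FR17. No fibroblast marker was at 0 in every library. The fibrillar collagen sum in sFD17 was 0.955 of control under TMM and 0.819 by library size alone. The part of fibroblasts in the collagen differences was not tested.

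The 10 endothelial markers summed to 168 CPM in control, 124 with TP5, 172 with sFD17 and 223 with FR17, with 9 below control in TP5, 4 of them past the rule, and all 10 above control in FR17. The smooth muscle and pericyte list, 7 of 8 read, summed to 94.1, 77.0, 111 and 106 CPM, with all 7 below control in TP5 and 1 past the rule. The mesothelium list, 2 of 4 read, summed to 3.31, 1.54, 2.35 and 5.24 CPM. The T and NK cell list was 33.5, 27.5, 27.5 and 95.5 CPM, and the B cell list 97.3, 167, 118 and 135 CPM. The epithelial, macrophage, monocyte, neutrophil, platelet and melanoma lists are given above. The part of other cell types in the differences between libraries was not tested.

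**Figure D4:**
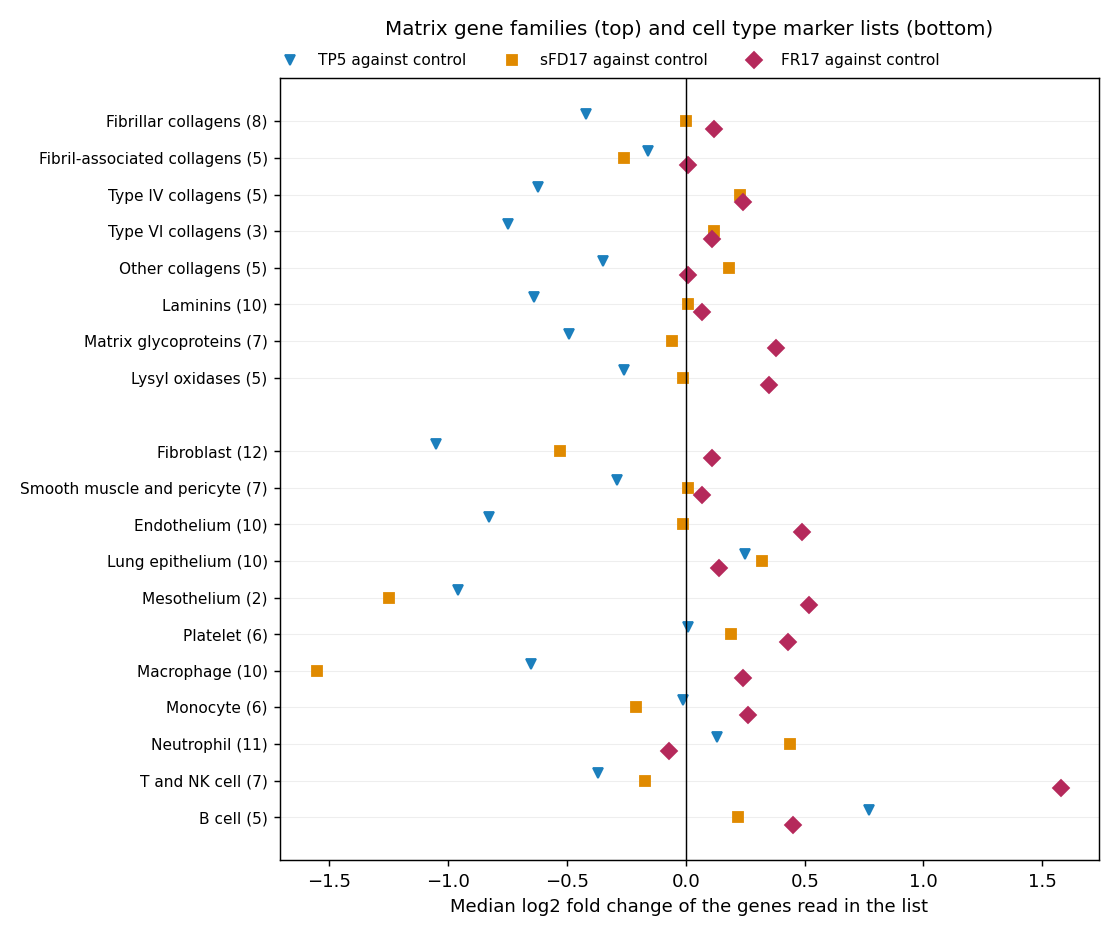
Median log2 fold change against the control library for the 8 matrix families (top) and for 11 cell type marker lists (bottom), with the number of genes read in parentheses and 1 symbol per peptide library. All 8 matrix families lie below 0 with TP5, as do the fibroblast (-1.05) and endothelium (-0.83) lists. In sFD17, under TMM, the fibroblast list stands at -0.53 and the fibrillar collagens at 0.00.

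Genes that process, bind or sense this matrix were read from 6 further lists. Of all genes, 1.83% were higher and 3.38% lower in TP5, 3.95% and 4.74% with sFD17, and 2.34% and 2.53% with FR17, which is the background for each count below. Of 21 read genes that modify and fold collagen, 0 were higher and 4 lower in TP5, 0 and 2 with sFD17, and 2 and 0 with FR17. The 2 lower in sFD17 were P3h2, a prolyl 3-hydroxylase (9.98, 10.6, 4.02 and 10.8 CPM in control, TP5, sFD17 and FR17), and Crtap (10.1, 5.92, 3.04 and 10.9 CPM). Adamts14, which removes the amino propeptide of procollagen, had 38, 35, 44 and 201 counts and was past the rule in FR17. P4hb, the most abundant, lay between 304 and 352 CPM.

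Among 8 read small leucine-rich proteoglycans, which regulate fibril assembly, 0 were higher and 5 lower in TP5, 0 and 3 with sFD17, and 0 and 1 with FR17. Dcn, encoding decorin, was 30.1 CPM in control, 12.9 with TP5, 13.4 with sFD17 and 33.4 with FR17, and Ogn was 6.79, 3.24, 2.43 and 8.30 CPM. Both were low in TP5 and sFD17. Of the 10 genes of this list, Dcn and Lum are also among the fibroblast markers, and Kera was at 0 counts.

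Of 14 read partners of elastic fibers and microfibrils, 0 were higher and 3 lower in TP5, 0 and 2 with sFD17, and 1 and 0 with FR17. Ltbp1, which holds latent TGF-β on microfibrils, had 461 counts in control, 118 with TP5, 59 with sFD17 and 493 with FR17. Fbln5 was the gene past the rule in FR17, with 37, 31, 31 and 110 counts. Mfap4 and Mfap5 of this list are fibroblast markers too. Emilin2 was abundant at 1004, 860, 1460 and 628 CPM.

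Of 10 basement membrane partners, 1 of them also a cell type marker, 0 were higher and 2 lower in TP5, 1 and 0 with sFD17, and 0 and 0 with FR17. Agrn, the heparan sulfate proteoglycan agrin, was 45.6, 48.5, 128 and 32.5 CPM and past the rule in sFD17. Pxdn, which crosslinks type IV collagen, was 4.49, 2.05, 6.07 and 4.28 CPM and past the rule in TP5. Of 11 other matricellular proteins read, 0 were higher and 4 lower in TP5, 0 and 2 with sFD17, and 0 and 0 with FR17. Ecm1 was 147, 55.4, 32.6 and 119 CPM, and Cyr61 18.8, 7.45, 10.5 and 22.1 CPM.

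Of 28 receptors read, 1 was higher and 0 lower in TP5, 0 and 2 with sFD17, and 0 and 0 with FR17. In TP5 14 lay above and 14 below control, with a median log2 fold change of -0.01. The receptor medians were 0.04 in sFD17 and 0.13 in FR17, beside 0.04 and 0.14 for the 48 matrix genes. Ddr1, a collagen-binding kinase, was 7.50 CPM in control, 16.7 with TP5, 13.7 with sFD17 and 12.0 with FR17 and was the gene past the rule in TP5. Itga6, a laminin receptor subunit, was 55.4, 30.8, 22.3 and 47.9 CPM, and Itga9 21.3, 12.1, 9.34 and 23.0 CPM, both past the rule in sFD17. Cd44, a hyaluronan receptor and the most abundant, was 2379, 2030, 2767 and 1351 CPM.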

How the data were processed

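Counts per gene were deposited by the authors for 4 libraries of sorted lung CD11b+Ly6g+ cells, as raw whole-number counts without normalization, with gene coordinates and lengths. The submitters' processing notes name HISAT2 2.0.5, StringTie 1.3.3b, featureCounts 1.5.0-p3, edgeR 3.18.1 and the build GRCm38.p6, without roles. Lung was digested with collagenase, RNA was extracted with TRIzol and cDNA was preamplified with a kit that keeps strand, but whether the counting used strand is not given in the sources used here. Preamplified reads are not independent molecules. All 68 members were in GENCODE M21, 67 with the same coordinates.

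Levels, fold changes and factors came from edgeR 4.0.16 (TMM, prior count of 2) in R 4.3.3, over genes with a mean of at least 10 counts. Since each group is 1 library, no replicate test was made. A gene was called at 2-fold or more when the exact 95% interval of the count ratio (Clopper-Pearson on the pair, scipy 1.17.1) left out 1. Named were the 5 most abundant read members of each family and each member called against control, in each pathway list the 3 largest called changes with a mean of at least 50 counts and the 2 most abundant genes, and in each marker list the 2 most abundant genes and those at 0. Other members named were named after their values were seen. Of the 48 members read, 1 enters the counts and sums but is not reported or drawn here. Members and lists (8 families, 6 pathway lists, 12 marker lists) were chosen with earlier results of these data known. Alternatives were DESeq2 1.42.0 size factors and Wald test, library size alone, other filters, folds and prior, and edgeR's exact test. The procedure was tested on simulated data. Promoter sequences are RefSeq's.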

Additional observations from a re-analysis of the deposited data

How the results depend on the processing

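No paired analysis was possible because each group is 1 library, and for the same reason no library could be left out. Without replicates, the spread between pools of mice is unknown, and members under about 50 counts carry wide counting intervals. Of 108 counts of changed members under the alternatives 68 stayed within 1.5 times, and of 387 fold changes of single genes 361 stayed within their interval, 26 moved (25 of them with library size alone). Over the 48 members read, the unrounded fold change against control changed sign with library size alone for 11 in sFD17 and 5 in FR17, none over 0.19 in size, and with DESeq2's size factors for 3 and 1, while 0 of the genes past the rule changed sign and none did in TP5. The main counts, higher and lower, were 1 and 5 for TP5, 1 and 2 for sFD17 and 2 and 2 for FR17 against control, 1 and 4 for FR17 against sFD17, 9 and 1 for FR17 against TP5, and 5 and 0 for sFD17 against TP5. At 1.5-fold, with higher first, 16 were lower in TP5, 5 and 4 changed in sFD17, 5 and 5 with FR17, 7 were higher in FR17 than in sFD17, 26 and 2 changed between FR17 and TP5, and 20 and 1 between sFD17 and TP5. Of all genes, 7.17% were then lower in TP5, 9.26% and 10.6% changed in sFD17, 6.96% and 8.46% with FR17, 20.6% were higher in FR17 than in sFD17, 10.4% and 6.58% changed between FR17 and TP5, and 11% and 11.3% between sFD17 and TP5. At 2-fold alone, 2 were higher in FR17 than in sFD17 and 1 lower in sFD17 than in TP5. The next 2 alternatives are no replicate tests: they take their dispersion from the 4 libraries treated as 1 group (in edgeR a biological coefficient of variation of 0.213 to 0.363), which holds the differences between groups too. With edgeR's exact test at an unadjusted p under 0.05, 0 were higher and 2 lower in TP5, 0 higher and 1 lower in FR17, 0 higher in FR17 than in sFD17, 0 lower in FR17 than in TP5 and 2 higher in sFD17 than in TP5, beside 0.711%, 1.23%, 0.685%, 1.03%, 5.78%, 0.685% and 2.95% of all genes. With DESeq2's Wald test at the same p, 2 were lower in TP5, 2 higher in sFD17, 0 higher and 0 lower in FR17, and 2 higher in sFD17 than in TP5, beside 1.2%, 2.28%, 0.523%, 1.28% and 3.46% of all genes. By that test Fn1 took the place of Loxl4 as higher in FR17 than in sFD17, and Thbs1 that of Col9a3 as lower in FR17 than in TP5. With DESeq2's size factors 2 were higher in sFD17 (Lama5 stood at the limit). With library size alone, 4 were higher and 1 lower in FR17, 9 higher and 2 lower in FR17 than in sFD17, 16 and 0 with FR17 against TP5, and 1 and 2 with sFD17 against TP5, beside 4.69% and 1.12%, 24.3% and 3.95%, 7.9% and 1.09%, and 3.03% and 8.27% of all genes. With no filter on low counts or with at least 10 counts in 1 library, 2 were higher in TP5 and 2 lower in FR17 than in TP5. FR17 against sFD17 then had 4 and 2 higher, and sFD17 against TP5 had 3 higher with no filter. Of all genes, 1.65% and 2.3%, 1.49% and 2.28%, 7.34% and 9.59%, and 3.79% did so, no filter first. The summed level against control moved with library size alone to 1.11 with TP5, 1.27 with sFD17 and 0.837 with FR17, and with DESeq2's size factors to 1.52 with sFD17. Without Thbs1 it was 0.688 with TP5 and 0.661 with sFD17, on the other side of 1, and 0.849 with FR17. Without Thbs1 and Fn1, chosen after seeing the data, it was 0.707, 1.07 and 1.03. The fibroblast marker sum without Pi16, likewise chosen afterwards, was 0.467 of control in TP5, 0.582 with sFD17 and 1.13 with FR17, from 0.807, 0.927 and 0.787. The cause of the other changes was not tested.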
